A study of Mus musculus with 24 samples.

Results

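The mural and meningeal genes examined here were Pdgfrb, Cspg4, Rgs5, Acta2, Notch3, Foxc1, Foxc2, Foxd1 and Tbx18, 9 genes in all. They were followed at the H3K4me3 regions that overlap their annotated transcription start sites (TSSs; GENCODE M1 on mm9). Of the 9 genes, 6 had such a region among the 17993 regions counted in the series, of which 13404 overlapped the TSS of any gene. Rgs5 and Acta2 had no region at or near the TSS. Tbx18 had a region that ended 11 bp short of its TSS, so it is not counted among the 6, and its values are given apart.

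Mural cells are the pericytes of capillaries and the smooth muscle cells of larger vessels, and in the brain they are wrapped around the endothelial tube. Platelet-derived growth factor B from the endothelium recruits them through the receptor encoded by Pdgfrb, and Notch signals between the endothelium and the vessel wall help to keep smooth muscle differentiated. The meninges, the sheaths that cover the brain, hold fibroblast-like cells and vessels, and forkhead genes such as Foxc1 are required for their formation. H3K4me3, trimethylation of lysine 4 of histone H3, marks the promoters of active genes and is found in every cell type, so a tissue sample reports a sum over all its cells.

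H3K4me3 was measured in cerebral cortex, as labelled, of C57BL/6 mice by single ChIP-Seq (anti-H3K4me3 alone) and by tChIP-Seq (anti-FLAG precipitation of tagged chromatin followed by anti-H3K4me3). The Rosa H2B-FLAG line has the label genotype Rosa CAG-H2B-FLAG and carries the tag in nearly all cells from development on, after recombination by Vasa-Cre. The Camk2a H2B-FLAG line has the floxed cassette (Rosa26 CAG-floxed-pA-H2B-FLAG) together with CaMKCreERT2, in which CreERT2 is driven by the Camk2a promoter, and Camk2a-positive neurons gain the tag on tamoxifen, given at 1 mg per day for 5 days from 8 weeks of age. All animals of both lines thus carried an H2B-FLAG cassette at Rosa26, as heterozygotes, while CreERT2 was carried by the Camk2a line and tamoxifen is described for it alone. The Camk2a mice were males collected a month after tamoxifen. The cortex is described as adult for both lines, and the exact age and the sex of the Rosa mice are not given in the sources used here. A lysate was prepared from 2 animals. By their titles, the 12 libraries come from 6 numbered preparations, 3 per line, and each number stands once for either kind of ChIP-Seq. Total counts ran from 1457261 to 8644574 over the 3 libraries of each of the 4 groups. The tChIP-Seq libraries of the Rosa line were the shallowest, with 1457261 to 1828371 counts, against 2709729 to 3049130 in tChIP-Seq of the Camk2a line. Levels are given as CPM, counts scaled to a common library size after correction by the trimmed mean of M-values (TMM), as mean ± SD (n = 3 libraries).

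Genes of cortical cell types were examined beside the tissue label. Genes of other tissues were not examined for this, so the values do not test the label. Regions at the TSSs of 7 of 8 excitatory neuron genes summed to 876 to 897 CPM in the 6 single ChIP-Seq libraries, and 10 of 12 endothelial genes summed to 527 to 562 CPM. No region overlapped the TSS of any of 10 microglial genes. In tChIP-Seq, the excitatory neuron genes summed to 1070 to 1130 CPM in the Camk2a line and 466 to 503 CPM in the Rosa line, without overlap.

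The regions of the 6 genes lay almost wholly past the TSS. Pdgfrb had the widest region, which spans 3854 bp and is wider than 90.7% of the regions at a TSS. Most of it is intronic, with 494 exonic bases of which 6 are coding. Cspg4 had a region at chr9:56712835-56715263 (plus strand, TSS at 56712911) that covers the first exon and the start of the first intron. Notch3 had its region at chr17:32302358-32304051, on the minus strand with the TSS at 32303825. The other 3 regions belonged to single-exon forkhead genes on the plus strand, so that every base past the TSS was exonic. They lay at chr13:31898349-31899535 for Foxc1, the narrowest with 1187 bp, chr8:123639922-123642311 for Foxc2 and chr13:99124156-99126382 for Foxd1. The 6 regions reached 44 to 226 bases upstream of the TSS and 1020 to 3749 bases downstream. Over the 4707 regions with 1 annotated TSS position of 1 gene, the medians were 572 bases upstream and 1288 downstream, and 88.4% held the TSS closer to their upstream end.

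The letters of the promoters differed widely. The 250 bases before the TSS are shown for Foxc1 and Notch3, which have a region at the TSS and many CG dinucleotides, for Foxc2 and Foxd1, for Tbx18, whose region stops beside the TSS, and for Rgs5 and Acta2, which have no region. They were read from mm9 on the strand of the gene and written 5′ to 3′, with every CG dinucleotide in capitals. Foxc1 is at chr13:31898265-31898514 (plus), Notch3 at chr17:32303826-32304075 (minus), Foxc2 at chr8:123639821-123640070 (plus) and Foxd1 at chr13:99123950-99124199 (plus). Tbx18 is at chr9:87626096-87626345 (minus), Rgs5 at chr1:171585382-171585631 (plus) and Acta2 at chr19:34329827-34330076 (minus).
Foxc1: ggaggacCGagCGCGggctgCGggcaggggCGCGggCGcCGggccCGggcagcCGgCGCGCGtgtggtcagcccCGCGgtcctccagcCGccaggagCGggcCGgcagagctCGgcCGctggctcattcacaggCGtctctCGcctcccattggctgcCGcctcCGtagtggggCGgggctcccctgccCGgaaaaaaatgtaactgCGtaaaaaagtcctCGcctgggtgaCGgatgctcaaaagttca
Notch3: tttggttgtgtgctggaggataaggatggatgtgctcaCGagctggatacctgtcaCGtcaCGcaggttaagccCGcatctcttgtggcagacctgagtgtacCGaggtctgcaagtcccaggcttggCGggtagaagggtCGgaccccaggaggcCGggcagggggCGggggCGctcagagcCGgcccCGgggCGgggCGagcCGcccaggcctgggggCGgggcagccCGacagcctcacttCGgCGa
Foxc2: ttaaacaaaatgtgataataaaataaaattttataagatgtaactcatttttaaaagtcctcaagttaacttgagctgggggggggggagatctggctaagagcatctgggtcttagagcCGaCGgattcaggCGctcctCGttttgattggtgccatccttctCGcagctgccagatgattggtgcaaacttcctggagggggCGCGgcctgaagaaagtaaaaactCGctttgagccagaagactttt
Foxd1: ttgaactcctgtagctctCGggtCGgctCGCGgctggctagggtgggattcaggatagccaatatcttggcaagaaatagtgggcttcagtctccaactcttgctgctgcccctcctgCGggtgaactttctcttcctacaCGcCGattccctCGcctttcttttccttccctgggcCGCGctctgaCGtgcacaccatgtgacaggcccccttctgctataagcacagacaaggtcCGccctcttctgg
Tbx18: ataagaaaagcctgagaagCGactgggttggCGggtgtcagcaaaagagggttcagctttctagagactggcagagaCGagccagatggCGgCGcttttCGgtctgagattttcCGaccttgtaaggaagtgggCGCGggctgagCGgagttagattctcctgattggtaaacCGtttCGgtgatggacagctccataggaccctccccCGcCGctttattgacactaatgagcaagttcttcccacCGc
Rgs5: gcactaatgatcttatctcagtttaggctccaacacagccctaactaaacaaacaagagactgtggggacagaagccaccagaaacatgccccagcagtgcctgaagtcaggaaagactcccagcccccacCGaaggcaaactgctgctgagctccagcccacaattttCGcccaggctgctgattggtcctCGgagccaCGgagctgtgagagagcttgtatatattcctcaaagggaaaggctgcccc
Acta2: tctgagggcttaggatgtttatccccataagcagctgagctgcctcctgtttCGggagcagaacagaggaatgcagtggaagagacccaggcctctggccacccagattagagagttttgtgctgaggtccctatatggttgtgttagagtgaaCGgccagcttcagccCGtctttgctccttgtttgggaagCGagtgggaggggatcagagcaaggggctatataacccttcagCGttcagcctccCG

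In these 250 bases Foxc1 held 29 CG dinucleotides, Notch3 19, Tbx18 15, Foxd1 12, Foxc2 8, Acta2 6 and Rgs5 4. In the window from -250 to 50 around the TSS, Pdgfrb held 7, as did Acta2, against a median of 11 over the 22233 promoters of protein-coding genes. Over all promoters, 90.0% of those with at least 10 CG dinucleotides in this window had a region at the TSS, and 15.4% of those with fewer. Pdgfrb therefore had a region with a CG count in the range where most promoters had none, while Rgs5 (6) and Acta2 (7) had no region. Over the whole region, Pdgfrb held 1.45 and Cspg4 1.98 CG dinucleotides per 100 bases, at percentiles 2.53 and 5.88 of the regions at a TSS, whose median was 4.36. Foxc1 (10.3), Foxc2 (10.0) and Foxd1 (12.0) were at percentiles 99.4, 99.2 and 99.8, and Notch3 (5.49) lay between.

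Motifs were searched in the same window of 300 bases on both strands. TATAAA was found at Foxc2 among the 9 genes (13.4% of all promoters), on the strand opposite to the gene. TGGGAA, the core of the site bound by the Notch effector RBPJ, was found at Acta2, Notch3, Foxc1, Foxc2 and Tbx18 (24.3% of all promoters), at 42 bases past the TSS in Notch3 and 64 before it in Acta2. The E-box CANNTG, which reads the same on both strands, occurred 3 times at Foxc2 and once each at Rgs5, Acta2, Foxd1 and Tbx18 (69.6% of all promoters). The CArG box, bound by serum response factor, was searched in its strict form CCWWWWWWGG, where W is A or T. This form was found at none of the 9 windows (1.48% of all promoters). Stretches close to it, such as ccctatatgg in the Acta2 sequence above, were not counted, so a CArG-like site is not excluded. These are matches of letters in a short window and no measurement of binding.

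The main question of the study was how H3K4me3 in tagged Camk2a-positive neurons differs from that in the tagged cells of the whole tissue, which is the comparison of the lines in tChIP-Seq. All 6 mural and meningeal genes with a region were lower in the Camk2a line than in the Rosa line, by 0.80 to 2.81 on the log2 scale. In each of the 6, every Camk2a library lay below every Rosa library. The share of all regions without such overlap was not determined, so nothing particular to these genes is read from it. Over all regions, 14.6% were called lower and 17.0% higher in this comparison at an adjusted p under 0.01 (edgeR quasi-likelihood F test, Benjamini-Hochberg over 17993 regions). The median log2 fold change was -2.22 for the 6 genes and 0.00 over all regions. Because the values sum over cells, fewer tagged cells of a type and less H3K4me3 per cell cannot be told apart.

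**Figure D1:**
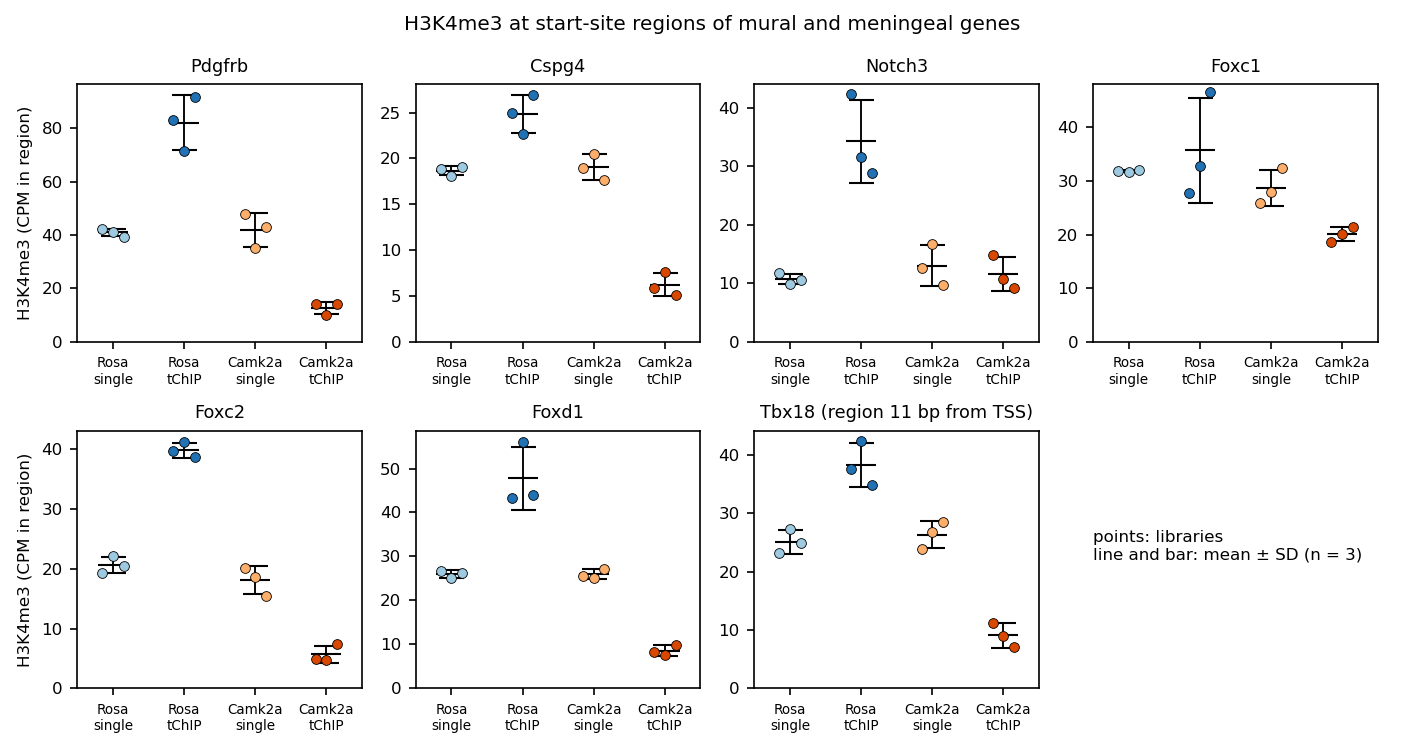
H3K4me3 level (CPM, y axes from 0, a scale of its own for each gene) in each of the 12 libraries by group (x axis), with the mean and SD of the 3 libraries per group. In every panel the 3 points of Camk2a tChIP-Seq lie below the 3 of Rosa tChIP-Seq, and the single ChIP-Seq points of the 2 lines overlap.

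Pdgfrb encodes the platelet-derived growth factor receptor by which pericytes are recruited. The gene lies on the plus strand of chromosome 18, with its TSS at 61204804 and its region at chr18:61204700-61208553. The region held 83.0, 71.6 and 91.9 CPM in the 3 Rosa tChIP-Seq libraries and 14.1, 10.1 and 14.0 CPM in the 3 of the Camk2a line. The lowest Rosa library was thus several times the highest Camk2a library. In single ChIP-Seq the values were 42.3, 41.3 and 39.4 CPM in the Rosa line and 47.8, 35.1 and 42.9 CPM in the Camk2a line, so that the Camk2a values spanned those of the Rosa line. The tChIP-Seq difference between lines was -2.67 ± 0.140 (log2, SE), or 6.36-fold lower, with an adjusted p of 1.73e-28 by edgeR.

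Cspg4 encodes NG2, a proteoglycan on the surface of pericytes and also of oligodendrocyte precursors. Its tChIP-Seq values were 25.0, 22.7 and 26.9 CPM in the Rosa line and 5.91, 7.58 and 5.16 CPM in the Camk2a line, the latter from 14 to 21 counts per library. The single ChIP-Seq libraries lay between these, at 18.8, 18.1 and 19.1 CPM in the Rosa line and 19.0, 20.5 and 17.7 CPM in the Camk2a line. The region was 3.95-fold lower in tChIP-Seq of the Camk2a line (log2 -1.98 ± 0.221, adjusted p = 1.70e-12, edgeR). Since the gene is used by more than 1 cell type, the oligodendrocyte lineage list is given below beside the mural one.

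Notch3 encodes the Notch receptor of arterial smooth muscle and pericytes. In tChIP-Seq it held 42.3, 31.6 and 28.9 CPM in the Rosa line and 14.8, 10.8 and 9.21 CPM in the Camk2a line. Its single ChIP-Seq values, 11.7, 9.93 and 10.6 CPM in the Rosa line and 12.6, 16.7 and 9.72 CPM in the Camk2a line, overlapped those of Camk2a tChIP-Seq, so that tChIP-Seq of the Rosa line stood apart from the other 3 groups. The difference between lines in tChIP-Seq was -1.56 ± 0.183 (log2, SE; adjusted p = 1.16e-11, edgeR). Which groups gave the peak behind this region is not given in the sources used here.

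Foxc2, a forkhead factor of vessel and mesenchyme development, had the largest difference of the 6. It held 39.7, 41.2 and 38.7 CPM in Rosa tChIP-Seq and 4.92, 4.69 and 7.37 CPM in Camk2a tChIP-Seq, where the counts were 13 to 20 per library. The Rosa libraries differed little among themselves, and all lay far above the Camk2a ones. Its fold was 7.00-fold lower (log2 -2.81 ± 0.199, adjusted p = 2.11e-21, edgeR). Foxd1, a forkhead factor known from stromal cells that give rise to pericytes, held 43.3, 56.1 and 44.0 CPM in the Rosa line and 8.20, 7.58 and 9.95 CPM in the Camk2a line after both precipitations. It differed by -2.47 ± 0.176 (log2, SE; adjusted p = 2.59e-21, edgeR), again without overlap.

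Foxc1, the close paralog of Foxc2 that is required in the meninges, had the smallest difference. Its tChIP-Seq libraries held 27.7, 32.8 and 46.6 CPM in the Rosa line and 18.7, 20.2 and 21.4 CPM in the Camk2a line. The groups did not overlap, but the Rosa libraries spread widely, and replicate 3 was the highest. The region fell by 0.80 on the log2 scale (SE 0.162, adjusted p = 2.67e-05, edgeR), and without Rosa tChIP replicate 3 by 0.58 with an adjusted p of 0.00752. In single ChIP-Seq, Foxc1 held 31.9, 31.6 and 32.1 CPM in the Rosa line and 25.8, 27.9 and 32.4 CPM in the Camk2a line.

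Tbx18, a T-box factor used as a marker of adult mural cells, behaved like the 6 in the region at chr9:87623872-87626084 that ends beside its TSS. The 3 Rosa tChIP-Seq libraries held 37.6, 42.3 and 34.8 CPM and the 3 Camk2a ones 11.2, 9.02 and 7.00 CPM. The region was lower by -2.05 ± 0.183 (log2, SE; adjusted p = 1.36e-16, edgeR) in the Camk2a line. For Rgs5, a regulator of G-protein signalling typical of pericytes, the nearest region lay 89308 bp away at the start of Rgs4. For Acta2, the actin of smooth muscle, it lay 28939 bp away and at no annotated TSS. The deposited counts cover called regions alone, so the H3K4me3 level at Rgs5 and Acta2 is not known from them.

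Per length of region, 5 of the 6 genes were low among the 13404 regions at a TSS. In single ChIP-Seq of the Rosa line these 5 held between 6.36 and 11.7 CPM per kb, where the median region at a TSS held 29.3. Foxc1 was at percentile 43.8 there and at 57.7 in tChIP-Seq of the Rosa line. The order was Foxc1 (26.8 CPM per kb), Foxd1 (11.7), Pdgfrb (10.6), Foxc2 (8.63), Cspg4 (7.69) and Notch3 (6.36), and no neighbours in it overlapped over the 3 libraries. In tChIP-Seq of the Rosa line, Foxc1 (30.1 CPM per kb), Foxd1 (21.5), Pdgfrb (21.3), Notch3 (20.2) and Foxc2 (16.7) each overlapped the next, and Cspg4 (10.2) stood below. In the Camk2a line after both precipitations, Foxc1 (16.9 CPM per kb) and Notch3 (6.85) stood apart from each other and from the rest, which ran without gaps from Foxd1 (3.85) through Pdgfrb (3.30) and Cspg4 (2.56) to Foxc2 (2.37). Among the regions at a TSS, these 4 levels were at percentiles 2.18, 1.78, 1.12 and 0.97, respectively.

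Single ChIP-Seq gave the same comparison of lines without selection by the tag. None of the 6 genes was called (edgeR, adjusted p from 0.276 to 0.993), and 0 of 6 had an unadjusted p under 0.05. DESeq2 returned no adjusted p for any of the 6 in this comparison. Over all regions, 0.928% were called higher and 1.22% lower. The log2 differences and their 95% intervals were 0.02 for Pdgfrb (-0.14 to 0.19), 0.03 for Cspg4 (-0.21 to 0.27) and 0.28 for Notch3 (-0.02 to 0.58). For the forkhead genes they were -0.15 for Foxc1 (-0.34 to 0.04), -0.20 for Foxc2 (-0.43 to 0.04) and 0.00 for Foxd1 (-0.21 to 0.20). At this depth a difference between the lines as large as that in tChIP-Seq lay outside every one of these intervals.

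The difference of the 2 line effects was tested as an interaction term fitted to the 12 libraries together. It was below 0 for all 6 genes, from -0.65 for Foxc1 to -2.70 for Pdgfrb, where 13.2% of all regions were called below and 13.7% above (edgeR). Foxc1 lost the call without Rosa tChIP replicate 3 (-0.44, adjusted p = 0.0956), Camk2a tChIP replicate 1 (-0.60, 0.0118) or Camk2a single ChIP replicate 3 (-0.56, 0.0175).

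Each kind of ChIP-Seq was also compared within a line. These comparisons share their libraries with those above, so their values are given side by side and not as separate support. In the Rosa line, where nearly all cells carry the tag, 4 of the 6 genes were higher after both precipitations than after one, with 24.7% of all regions called higher and 22.5% lower. Notch3 rose most, by 1.71 ± 0.155 (log2, SE), followed by Pdgfrb (1.01 ± 0.0930), Foxc2 (0.95 ± 0.131) and Foxd1 (0.89 ± 0.119). Cspg4 did not pass the threshold (0.42 ± 0.154, adjusted p = 0.0123, edgeR), although its 3 tChIP-Seq libraries lay above its 3 single ChIP-Seq libraries. With library totals in place of TMM or with a minimum of 10 counts it was called, at adjusted p values of 0.00202 and 0.00695 (edgeR). Foxc1 was not called either (0.15 ± 0.126), and its groups overlapped. Without Rosa tChIP replicate 3 its value was -0.07. Tbx18 rose by 0.61 ± 0.128. In the cell type lists below, 10 of 12 mural, 6 of 7 meningeal and 7 of 9 astrocyte genes with a region were higher. So were 3 of 10 endothelial and 3 of 7 inhibitory neuron genes. Called lower were 1 mural and 1 astrocyte gene, 3 of 7 oligodendrocyte lineage genes and all 7 excitatory neuron genes (median -0.81).

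In the Camk2a line, 5 of the 6 genes were lower after both precipitations, while 22.6% of all regions were called lower and 25.3% higher. Pdgfrb (-1.71 ± 0.142, log2, SE), Foxc2 (-1.68 ± 0.212), Cspg4 (-1.61 ± 0.203) and Foxd1 (-1.60 ± 0.173) changed by like amounts, as did Tbx18 (-1.52 ± 0.171). Foxc1 fell by 0.52 on the log2 scale (SE 0.136, adjusted p = 0.000544, edgeR), and this call was lost without Camk2a single ChIP replicate 3 (-0.42, adjusted p = 0.0118) and under the Wald test of DESeq2 (adjusted p = 0.0161). Notch3 was not called, at -0.15 with a 95% interval from -0.53 to 0.22. For Notch3, tChIP-Seq of the Rosa line thus stood apart from the other 3 groups, whereas Pdgfrb, Foxc2 and Foxd1 departed from single ChIP-Seq in both lines, upward in the Rosa line and downward in the Camk2a line. The part of the FLAG step itself and of the lower depth of tChIP-Seq in these changes was not tested.

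**Figure D2:**
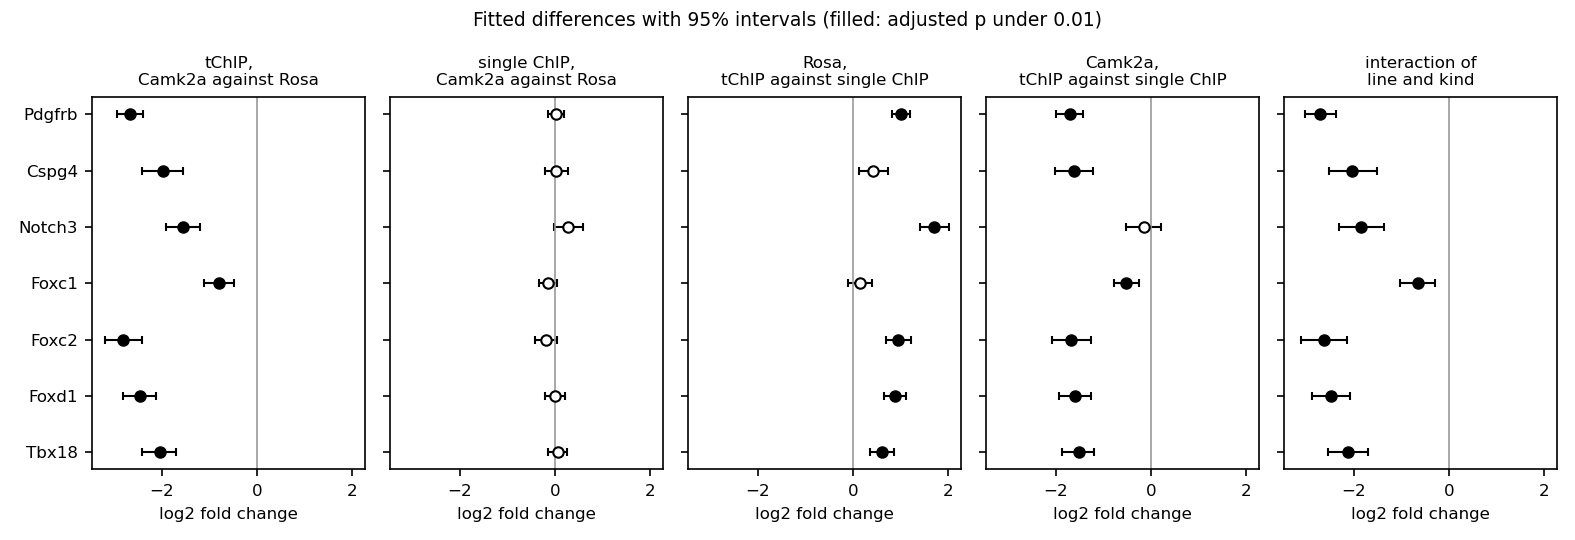
Log2 fold change (x axis, fitted by edgeR, with its 95% interval) of each gene (y axis) in the 5 comparisons, filled where the adjusted p was under 0.01. All 7 points are left of 0 in the tChIP-Seq comparison of lines, from -0.80 for Foxc1 to -2.81 for Foxc2, and none is filled in the single ChIP-Seq comparison.

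The profiles over the 12 libraries differed among the genes. The correlation of a gene's log2 CPM with the mean of the other 5 was 0.98 for Pdgfrb, Foxc2 and Foxd1, 0.92 for Cspg4, 0.80 for Foxc1 and 0.58 for Notch3, as a description over 12 libraries that share groups and depth. Among 13333 other regions at a TSS, those most like the mean profile of the 6 genes were at Tril (with Gm16499 on the same region, r = 0.9962), Ppara (0.9947), Trim47 (0.9930), Gm16600 (0.9927) and Sall3 (0.9924). Their log2 differences between lines in tChIP-Seq ran from -1.77 for Sall3 to -2.58 for Ppara, and in single ChIP-Seq from -0.15 for Sall3 to -0.01 for Gm16600.

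Further regions along the Notch3 and Foxc1 loci gave values unlike those of the start site. Inside Notch3, a region 3782 to 4899 bases past the TSS, which touches no exon, held 19.7 ± 1.59 CPM in tChIP-Seq of the Rosa line and 18.4 ± 1.09 CPM in the Camk2a line. It did not pass the test between lines in tChIP-Seq (log2 -0.09 ± 0.183, adjusted p = 0.722, edgeR) and was higher after both precipitations than in single ChIP-Seq of either line, by 0.99 ± 0.186 in the Rosa and 0.56 ± 0.168 in the Camk2a line. A second region, 23065 to 23611 bases past the TSS, gave -0.52 ± 0.290 between lines (adjusted p = 0.148). The start site of Notch3 and the interior of the gene thus gave different values in the Camk2a line; the difference between regions was not tested.

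Around Foxc1, a region 13845 to 14794 bases past the TSS, beyond the end of the gene, held 14.2 ± 2.54 CPM in tChIP-Seq of the Rosa line and 3.86 ± 1.54 CPM in the Camk2a line. The difference was -1.86 ± 0.292 (log2, SE; adjusted p = 9.04e-08, edgeR), with a 95% interval from -2.43 to -1.29 against -1.12 to -0.48 at the start site of Foxc1. The Camk2a tChIP-Seq libraries held 6 to 14 counts in this region, and the difference between the 2 regions was not tested. A region between -5711 and -5309 bases from the TSS showed -0.03 ± 0.351 between lines in tChIP-Seq and exceeded its single ChIP-Seq level in each line, from 7 to 17 counts per library. Beside Foxc2, the region at the start of Mthfsd, which ends at -7209 bases from the Foxc2 TSS, gave -0.02 ± 0.110 between lines in tChIP-Seq, with a 95% interval from -0.24 to 0.19 that excludes the fall at Foxc2.

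**Figure D3:**
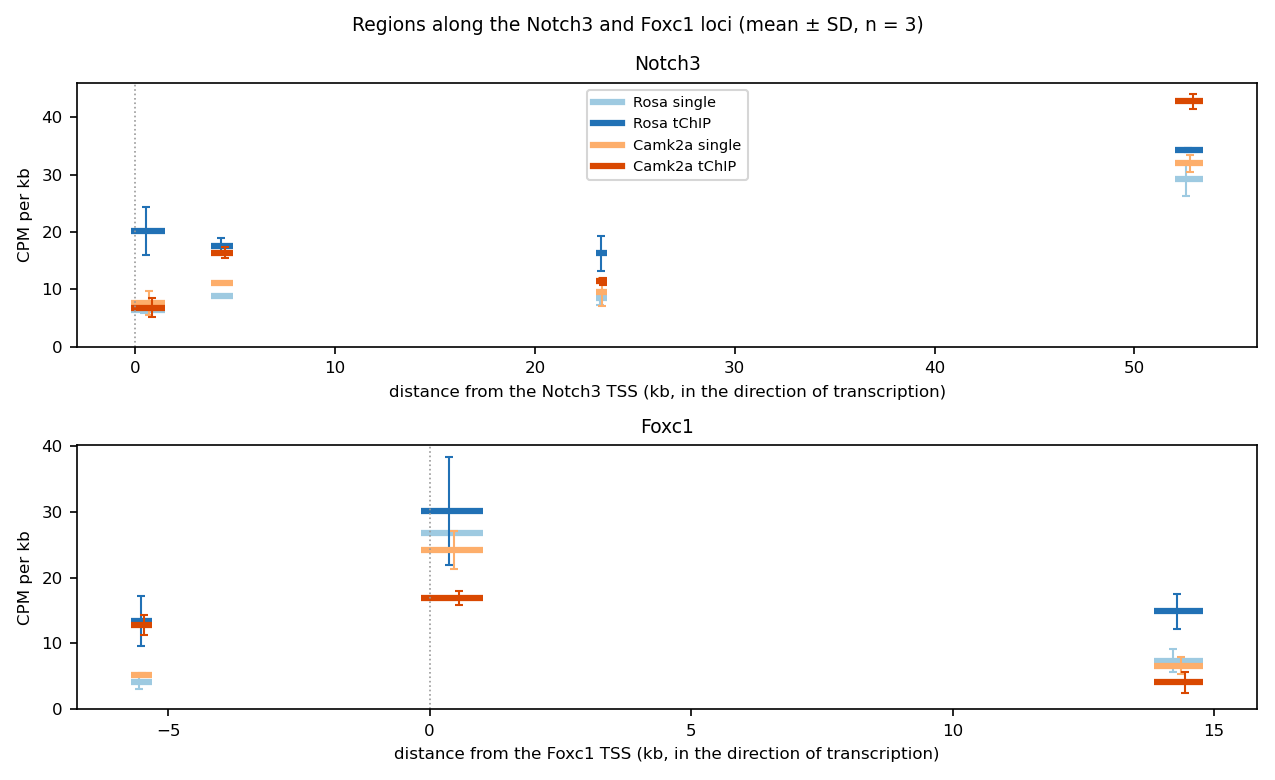
Mean CPM per kb (y axes from 0, bars are SD of 3 libraries) of each region along the Notch3 and Foxc1 loci by distance from the TSS (x axes), with a line as long as the region for each group. At the TSS of Notch3 the Rosa tChIP-Seq line (20.2 CPM per kb) stands above the other 3 groups, while 3782 to 4899 bases further on both tChIP-Seq lines lie together at 17.6 and 16.4.

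Pdgfrb lies close to Camk2a, whose promoter drives CreERT2 in the Camk2a line, so the regions within 500 kb were examined for differences that do not depend on the tag. Of 13 regions at the TSS of another protein-coding gene, 3 were higher in single ChIP-Seq of the Camk2a line and none lower. These were Arsi (1.94 ± 0.145, log2, SE), Camk2a itself (0.52 ± 0.0384) and Slc6a7 (0.70 ± 0.0697), which lie next to each other. The Slc6a7 region ends 30342 bp before the Pdgfrb region, which itself showed 0.02 ± 0.0843. On the far side, Hmgxb3 (126832 bp away) showed 0.00 ± 0.0440. In tChIP-Seq, the same 3 regions and both of Synpo, a gene of dendritic spines, were higher in the Camk2a line, and the other 8 were not called. Pdgfrb, at -2.67, thus differed in direction from the called regions on its left.

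**Figure D4:**
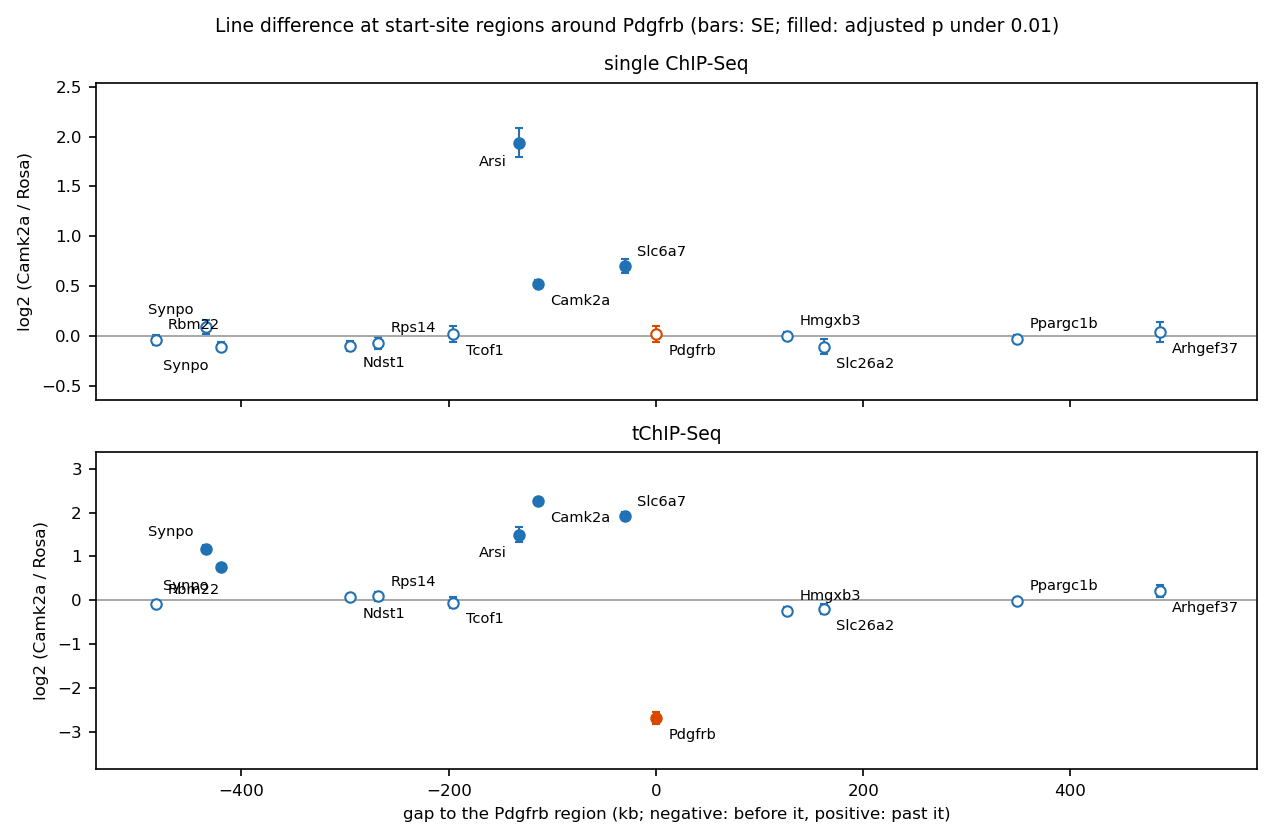
Log2 difference between the lines (y axes, bars are SE) at Pdgfrb and at 13 regions of other protein-coding genes, by the gap to the Pdgfrb region in kb (x axis), filled where the adjusted p was under 0.01. In single ChIP-Seq, Arsi, Camk2a and Slc6a7 are filled, and Pdgfrb is near 0 at 0.02, whereas in tChIP-Seq Pdgfrb is the lowest point at -2.67.

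Other mural genes gave a less uniform picture than the 6. Of 25 further mural genes, 12 had a region at the TSS, and in tChIP-Seq 6 of these were lower in the Camk2a line, 2 higher and 4 not called, with a median of -0.41. The aminopeptidase gene Anpep (-1.96 ± 0.337) and the adhesion molecule gene Mcam (-1.84 ± 0.126) fell most. Anpep held 4 to 12 counts per library in Camk2a tChIP-Seq. Myl9 (-1.72 ± 0.292) and Cald1 (-0.86 ± 0.184), which encode proteins of the contractile apparatus, also fell. The other called falls were at Ednra (-1.08 ± 0.212) and Tpm2 (-0.45 ± 0.135). Not called were Mylk (-0.36 ± 0.247), Kcnj8 (0.22 ± 0.187), S1pr3 (0.12 ± 0.193) and Agtr1a (0.40 ± 0.227). The higher ones were Gucy1b3 (0.72 ± 0.0860) and Gucy1a3 (0.60 ± 0.0943), the subunits of soluble guanylate cyclase, which neurons express as well. The summed level of the 12 regions was 366 to 395 CPM in Rosa and 345 to 362 CPM in Camk2a tChIP-Seq. These sums include the 2 regions that were higher. Gucy1b3 held 70.3 ± 1.15 CPM in Rosa and 115 ± 6.66 CPM in Camk2a tChIP-Seq, and Gucy1a3 61.2 ± 1.83 and 92.5 ± 6.23 CPM. In single ChIP-Seq, 1 of the 12 was called higher in the Camk2a line, the angiotensin receptor gene Agtr1a (0.92 ± 0.211, adjusted p = 0.00247, edgeR). The lists were not chosen independently of earlier results of these data, and nothing particular to a list is read from its count.

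Of 20 meningeal genes, 7 had a region, of which 5 were lower and 2 not called, with a median of -2.10. They included the zinc finger gene Zic1 (-2.21 ± 0.130), Twist1 (-1.86 ± 0.187) and the collagen gene Col1a2 (-2.10 ± 0.418). Slc6a13, a GABA transporter of the meninges, gave -2.30 ± 0.732 (adjusted p = 0.00770, edgeR), from 1 to 7 counts per library. In single ChIP-Seq, Slc6a13 gave -1.12 ± 0.424 (adjusted p = 0.0864), also without overlap of the lines, and its interaction was not called (-1.25 ± 0.883, adjusted p = 0.291). Col1a1 (-0.18 ± 0.538) was not called, with an SE too wide to show a difference of the size seen for Foxc1, and neither was the laminin gene Lama1 (-0.03 ± 0.126). Their summed level was 210 to 221 CPM in Rosa and 78.1 to 89.5 CPM in Camk2a tChIP-Seq, and 103 to 118 CPM in single ChIP-Seq of both lines.

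Ligands, receptors and targets of the pathways that act on mural cells were divided. All 27 such genes had a region, and 13 were lower, 5 higher and 9 not called in tChIP-Seq of the Camk2a line, with a median of -0.25. Among the ligands of platelet-derived growth factor receptors, Pdgfa (0.28 ± 0.0560), Pdgfb (0.31 ± 0.0600) and Pdgfc (0.52 ± 0.0827) were higher while Pdgfd (-1.64 ± 0.213) was lower. Pdgfb was also called in single ChIP-Seq, in the other direction (-0.15 ± 0.0367, adjusted p = 0.00507). Of the Notch receptors beside Notch3, Notch1 fell by 2.28 on the log2 scale (SE 0.110) and Notch2 by 0.45 (SE 0.102), and Notch4 was not called (-0.05 ± 0.103). The ligand genes Jag1 (-1.43 ± 0.0866), Dll4 (-0.63 ± 0.104) and Dll1 (-0.49 ± 0.0779) were lower and Jag2 (0.41 ± 0.0826) higher. The effector Rbpj was lower by a small amount (-0.23 ± 0.0652), and its targets Hey1 (0.16), Hey2 (-0.26) and Hes1 (-0.21) did not pass the threshold. In the transforming growth factor pathway, the endothelial co-receptor Eng (-2.81 ± 0.216), its partner Acvrl1 (-2.25 ± 0.205), Tgfb1 (-1.62 ± 0.107) and Tgfbr2 (-0.95 ± 0.126) fell, and Tgfbr1 was not called (0.05 ± 0.0820). Tek, the receptor of angiopoietins (-2.19 ± 0.272), and S1pr1, a sphingosine phosphate receptor (-2.27 ± 0.0974), were lower. Of the factors that drive smooth muscle genes, Mkl2 was higher (0.42 ± 0.0742), and Srf (0.06), Myocd (0.41 ± 0.197) and Mkl1 (-0.06) were not called.

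Of 19 genes related to the 9 or beside them in the genome, 11 had a region, with 8 lower, 2 higher and 1 not called. The forkhead genes were all lower where they had a region, namely Foxd2 (-2.27 ± 0.184), Foxf2 (-1.74 ± 0.0894), Foxf1a (-0.97 ± 0.107) and Foxq1 (-0.93 ± 0.0960). Foxf2 and Foxq1 lie beside Foxc1, and Foxf1a beside Foxc2. The T-box gene Tbx15 (-1.71 ± 0.239) was lower, as were the actin genes Actb (-0.30 ± 0.0778) and Actg1 (-0.26 ± 0.0637). Rgs4 (1.00 ± 0.0927) and Rgs8 (1.44 ± 0.144), relatives of Rgs5 that neurons use, were higher, and Rgs16 was lower (-0.58 ± 0.129). Pdgfra, the other receptor of the family, was not called (-0.46 ± 0.177, adjusted p = 0.0302, edgeR). In single ChIP-Seq, 1 of the 11 genes was called lower in the Camk2a line and 10 were not called.

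Genes of other non-neuronal cells were lower in tChIP-Seq of the Camk2a line too. Of the endothelial genes, 9 of 10 with a region were lower, with a median of -1.67 and the largest changes at Emcn (-2.54 ± 0.371) and Tie1 (-2.31 ± 0.476). Both rested on low counts in Camk2a tChIP-Seq, 3 to 6 per library at Emcn and 3 to 4 at Tie1. Of the astrocyte genes 7 of 9 were lower and Slc1a2 higher (0.38 ± 0.0696), with Aqp4 (-2.71 ± 0.269) and Gja1 (-2.29 ± 0.119) lowest. Aqp4 held 7 to 12 counts per library in Camk2a tChIP-Seq. Of the oligodendrocyte lineage genes 5 of 7 were lower, with Olig2 at -2.48 ± 0.142 and Mag at -2.19 ± 0.231, and Mbp was higher (1.18 ± 0.0943). Which annotated start site of Mbp this value belongs to is not given here. In single ChIP-Seq, Olig1 (-0.33), Olig2 (-0.24) and Cnp (-0.19) of this lineage were called lower as well. Cspg4 was not called there (0.03), and its 95% interval from -0.21 to 0.27 holds the value of Cnp. The difference between Cspg4 and these genes was not tested. Inhibitory neuron genes were lower in 5 of 7, with Dlx2 (-1.30 ± 0.169) and Lhx6 (-1.20 ± 0.164) leading, and all 7 excitatory neuron genes were higher, led by Slc17a7 (1.65 ± 0.0984) and Neurod2 (1.37 ± 0.0789). The part of endothelial cells and glia in the values of genes such as Cspg4 was not tested.

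**Figure D5:**
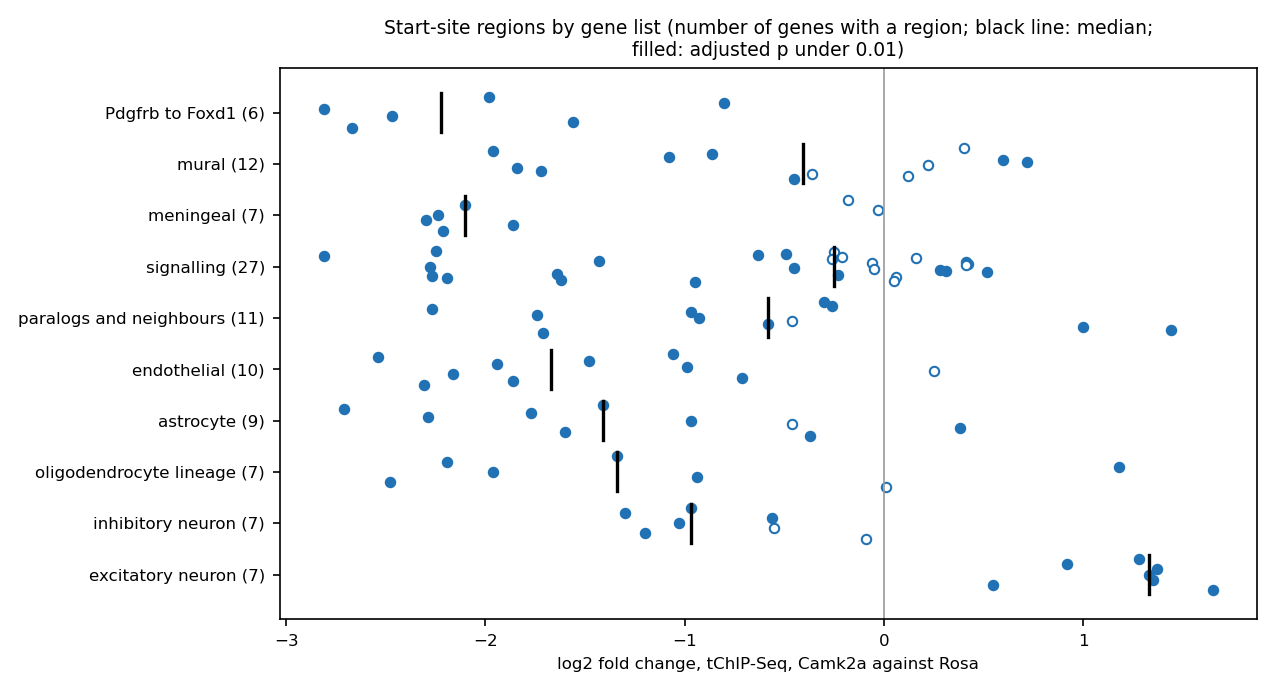
Log2 difference between the lines in tChIP-Seq (x axis) at the start-site region of each gene, by gene list (y axis, with the number of genes that have a region), with the median of a list as a black line and points filled where the adjusted p was under 0.01. Pdgfrb, Cspg4, Notch3, Foxc1, Foxc2 and Foxd1 (top) have a median of -2.22, the other mural genes one of -0.41, and all 7 excitatory neuron genes lie above 0.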

How the data were processed

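Per the labels and the study's methods, the authors removed reads from repeats with Bowtie2 2.1.0, mapped the 80 nt reads to mm9 with Bowtie 1.0.0, removed duplicates with SAMtools (0.1.19 in the labels, another version in the methods), used MACS peaks found reproducibly in triplicates and obtained the reads of each region with bedtools 2.17.0. The deposited values are these counts, whole numbers without normalization, on 17993 regions shared by 12 libraries. How the peaks of the 4 groups were combined into the list is not given in the sources used here. A region may therefore be on the list through the group where it is high. The part of this choice in the differences between groups was not tested. The 12 input and FLAG samples were not analysed here. The shared list leaves genes without a called region unmeasured.

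Counts were compared with edgeR 4.0.16 (R 4.3.3; TMM), using glmQLFit and glmQLFTest in default form, without filter and no covariate, on the 6 libraries of each pair of groups, or on all 12 for the interaction. An adjusted p (Benjamini-Hochberg over all regions) under 0.01, the threshold of the study, made a call. SEs are the size of the log2 fold change over the square root of F. CPM used TMM factors over all 12 libraries. Regions were assigned by overlap with GENCODE M1 TSSs, and promoter letters were read from the mm9 reference. Where a listed gene had more than 1 region at its TSSs, the region with the highest total count stood for it. Values at other start sites of such a gene are not given. Named were all 9 genes, up to 2 called genes per direction and list with non-overlapping groups, protein-coding neighbours of Pdgfrb and the 5 regions most alike. The value of 1 gene that this rule names is not reported here. Further genes of the mural, meningeal, pathway and relatives lists, and the oligodendrocyte genes called in single ChIP-Seq, were named after their values were seen. The 9 genes and all lists were chosen with earlier results of these data known. The replicates of a group are numbered preparations, and p-values measure the spread between them. Within a line, the titles give single ChIP-Seq and tChIP-Seq libraries of a preparation the same number, so the within-line and interaction comparisons use libraries that appear to share a lysate and its animals. Between lines the numbers are names alone. The correlation of same-numbered deviations lay between -0.0096 and 0.0302. Alternatives were DESeq2 1.42.0 (size factors or Wald test), library totals, edgeR with legacy=FALSE, a minimum of 10 counts in every library, a threshold of 0.05, all 12 libraries in a fit, a replicate block (for the interaction also within each line), a TSS within 1000 bp and leaving out each library. Tables were made with numpy 2.4.6 and pandas 2.3.3, and plots with matplotlib 3.10.9.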

Additional observations from a re-analysis of the deposited data

Results flagged for a closer look

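The effect of the line differed between tChIP-Seq and single ChIP-Seq for all 6 genes with a region, by the interaction of line and kind in edgeR over 12 libraries. Over all regions, 13.2% were called below 0 and 13.7% above by this interaction. The difference of the log2 fold changes was -2.70 for Pdgfrb (adjusted p = 3.91e-39), -2.62 for Foxc2 (3.54e-21), -2.47 for Foxd1 (8.45e-25), -2.03 for Cspg4 (1.11e-12), -1.85 for Notch3 (5.73e-12) and -0.65 for Foxc1 (0.00247). Foxc1 is the gene among them whose value depended on single libraries.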

How the results depend on the processing

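The number of the 6 genes called stayed within 1.5 times the reported number in all 5 comparisons and under every alternative run: 6 between lines in tChIP-Seq, 0 between lines in single ChIP-Seq, 4 to 5 within the Rosa line, 4 to 5 within the Camk2a line and 5 to 6 for the interaction. With a TSS within 1000 bp, which adds Tbx18 to the 6 genes, they were 7, 0, 5, 6 and 7. With a replicate block the numbers were 6, 0, 4, 5 and 6. For the interaction, a replicate block within each line, chosen after the data were seen, also gave 6. The block changed no call of these genes in any of the 5 comparisons. Between lines the numbers are names alone, so an unchanged call there says nothing about pairing. The plain block of the interaction joins equal numbers across the lines and has the same limit. Over all regions, the block gave 2948 higher and 2520 lower calls between lines in tChIP-Seq, against 3062 and 2620 without it. Of 525 values of single genes under an alternative, Tbx18 included, 517 kept their direction and side of the threshold where called, 5 lost the call (all Foxc1) and 3 gained it (all Cspg4 within the Rosa line), and no called value changed sign. In single ChIP-Seq, the Wald test of DESeq2 gave no adjusted p for these genes and so no count, and it called 5 regions higher and 12 lower of 3691 that received one, against 167 and 219 of 17993 in edgeR. Within the Camk2a line it called 2414 regions lower against 4058. The cause was not tested. Counts of 13 to 45 in Camk2a tChIP-Seq libraries limit the precision there at Pdgfrb, Cspg4, Notch3, Foxc2, Foxd1 and Tbx18.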
